A study of Mus musculus with 8 samples.

Results

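This account covers the genes of cytoplasmic translation initiation and elongation in leukaemia stem cells with and without Nynrin. Members are the rows of the deposited table whose symbol starts with Eif1 to Eif6, Eef1 or Eef2, together with Pabpc1, Etf1, Gspt1 and Abce1. The rule leaves out Eif2ak1 to Eif2ak4, Eif2s3x, Eif2s3y, Eef1e1, the Eef1akmt and Eef2kmt genes and names with -ps. It finds 64 of 48500 genes and sets 25 rows aside that match by name. The symbol Eef1aknmt, a methyltransferase of eEF1A, stays in by the letter of the rule, as does Eif2c5, a row named like a factor.

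RNA was sequenced from 8 libraries of mouse bone marrow, 4 labelled WT (WT1 to WT4) and 4 labelled Nynrin-KO (KO1 to KO4). Per the series' design text, HOXA9 and MEIS1 drove the acute myeloid leukaemia in both groups. The WT mice were Nynrin+/+ and the Nynrin-KO mice Nynrin-/-. For each library about 10000 cells with GFP and c-Kit and without Gr-1 were sorted, and cDNA was made with a Smart-Seq V4 kit for very small inputs. The labels give no age or sex, do not say how the leukaemia genes were introduced, and do not say that the libraries of a group are separate mice. The p-values therefore reflect library spread, which may be technical. Levels are FPKM (fragments per kilobase of transcript, scaled to a fixed library total), which adjusts for transcript length so that genes can be set side by side. The length that fits the values is that of each gene's longest annotated transcript. A gene expressed mainly as a shorter transcript can therefore be listed too low, which limits every comparison of levels between genes.

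Translation of an mRNA starts when eIF2 brings the initiator tRNA to the small ribosomal subunit, eIF3 and the eIF1 factors hold it open for scanning, and the cap-binding eIF4 factors load it onto the mRNA. eEF1A then delivers each amino-acyl tRNA, eEF2 moves the ribosome on, and release and recycling factors end the cycle. Many of the mRNAs for elongation factors, and some for initiation factors, begin with a tract of pyrimidines (TOP mRNAs), like those of ribosomal proteins, and their translation responds to the growth kinase mTOR.

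Promoter sequence is shown for 5 members: Eef2 and Abce1, whose mRNAs are among the most reduced, Eif4a1 with its paralogue Eif4a2, which take opposite signs of difference, and Eif4g1. The sequences are from RefSeq (build GRCm38.p6) and run 5′ to 3′ on the strand of the gene, over up to 250 bases before the listed start and ending where an annotated exon begins. Capitals mark matches, on either strand, to CACGTG (an E-box), CCGGAAG (the core bound by ETS factors), TGACGTCA (a CRE), CCAAT or TATAAA, and no marked match overlaps another.
Eef2, chr10:81176381-81176630, + strand: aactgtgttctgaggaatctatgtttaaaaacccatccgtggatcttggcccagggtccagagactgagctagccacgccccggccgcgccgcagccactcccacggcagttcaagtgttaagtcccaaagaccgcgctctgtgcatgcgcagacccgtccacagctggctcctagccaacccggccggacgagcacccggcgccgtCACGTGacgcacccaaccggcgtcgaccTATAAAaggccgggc
Abce1, chr8:79711741-79711990, - strand: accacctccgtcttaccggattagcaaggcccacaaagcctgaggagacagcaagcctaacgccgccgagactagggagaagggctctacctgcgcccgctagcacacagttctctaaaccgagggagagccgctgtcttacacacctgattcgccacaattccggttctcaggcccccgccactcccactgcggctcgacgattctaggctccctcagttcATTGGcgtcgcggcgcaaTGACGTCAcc
Eif4a1, chr11:69672424-69672673, - strand: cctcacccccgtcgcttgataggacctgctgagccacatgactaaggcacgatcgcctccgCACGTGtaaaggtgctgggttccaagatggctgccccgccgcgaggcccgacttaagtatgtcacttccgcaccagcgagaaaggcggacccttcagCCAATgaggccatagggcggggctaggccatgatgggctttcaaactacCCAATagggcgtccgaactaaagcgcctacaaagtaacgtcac
Eif4a2, chr16:23107218-23107443, + strand: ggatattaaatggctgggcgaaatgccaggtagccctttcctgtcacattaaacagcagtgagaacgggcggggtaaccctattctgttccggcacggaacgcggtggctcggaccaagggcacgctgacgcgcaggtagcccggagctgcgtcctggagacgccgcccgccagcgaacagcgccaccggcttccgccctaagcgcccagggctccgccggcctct
Eif4g1, chr16:20672477-20672722, + strand: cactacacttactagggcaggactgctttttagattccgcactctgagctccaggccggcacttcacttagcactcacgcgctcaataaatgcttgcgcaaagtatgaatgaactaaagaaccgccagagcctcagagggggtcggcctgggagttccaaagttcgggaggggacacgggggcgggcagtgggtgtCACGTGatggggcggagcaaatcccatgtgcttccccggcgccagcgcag

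The E-box begins 43 bases before the start of Eef2, 189 before that of Eif4a1 and 54 before the RefSeq start of Eif4g1. The longest annotated Eif4g1 transcripts begin further upstream, at 20668313, so the stretch shown for it lies inside the annotated gene, whereas the other stretches end at the annotated start of their gene. Abce1 has the CRE letters 10 bases before its start and a CCAAT box 28 bases before it. None of these letters is in the Eif4a2 stretch, which says only that they are not in this window. RefSeq promoter windows of 300 bases, 250 before and 50 after the start, matched 47 of the 64 members by symbol. CACGTG was in the windows of 13 of 47 members (27.7%), beside 12.2% of the 7852 tested genes with a window and 8.09% of all 27025 genes with one. Of the 24 lower members with a window, 8 held it, among them Eef2, Eif4a1, Eif4e, Eif4g1 and Eif5a. CCGGAAG was in 17 members (36.2%), beside 22.6% and 9.93%. CCAAT was less frequent in the members, at 34.0% beside 43.9% of the tested genes, and TATAAA was in 4 members. TGACGTCA was in 2 members, Abce1 and Eef2. A match is a run of letters and was not tested as a site.

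Depth differed 18.1-fold between the libraries, from 1.83 M recovered reads (M for mega) in KO3 and 1.96 M in WT3 to 28.7 M in KO4 and 33.1 M in WT1. Nynrin itself was listed at 0.0080 to 0.286 FPKM across WT and 0.0982 to 0.437 FPKM across Nynrin-KO libraries, too low in both groups to check the labels. Xist was at 15.2 to 26.5 FPKM and Ddx3y at most 0.111 FPKM in the WT libraries, whereas KO2, KO3 and KO4 had Xist at 0.0175 to 0.366 FPKM and Ddx3y at 18.2 to 20.7 FPKM. KO1 held both, at 12.7 and 2.18 FPKM, so the genotype cannot be told apart from the difference in these sex-linked genes. Whether KO1 holds RNA of more than 1 mouse was not tested, and its values are used as 1 of the 4 Nynrin-KO libraries. Gm10800, a predicted gene, was at 3349 to 6076 FPKM in WT1, KO2 and KO4 and at 28612 to 142258 FPKM in the other 5 libraries. All 17 mature neutrophil markers were in the table, and together they reached 3053 to 105004 FPKM across WT and 125563 to 284776 FPKM across Nynrin-KO libraries. One of them is Ly6g, a Gr-1 antigen gene, at 0.707 to 49.3 FPKM across WT and 93.5 to 264 FPKM across Nynrin-KO libraries, although the sort was for cells without Gr-1. The 6 stem and progenitor markers summed to 90.04 to 239 FPKM across WT and 33.7 to 57.1 FPKM across Nynrin-KO libraries. Within them Kit, the gene of the sorted antigen c-Kit, was at 2.63 to 6.40 and 2.92 to 4.91 FPKM, and Cd34, which carried most of the WT sum, at 55.7 to 151 and 5.54 to 7.30 FPKM. The 2 driver genes of the leukaemia are in the same list, and their means were higher in Nynrin-KO libraries: Meis1 was at 0.664 to 0.898 FPKM in WT and 2.03 to 5.13 FPKM in Nynrin-KO libraries, and Hoxa9 at 0.569 to 1.90 and 1.70 to 6.38 FPKM, where the groups overlapped. These are the mouse gene rows, and whether they count transcripts of an introduced copy is not stated. The 12 monocyte and macrophage markers summed to 1322 to 2543 FPKM and 1885 to 4231 FPKM, the 6 mast cell and basophil markers to 6.62 to 11.4 and 47.2 to 117 FPKM, the 8 erythroid markers to 0.277 to 2.57 and 8.87 to 49.0 FPKM, and the 8 B and T cell markers to 21.3 to 27.7 and 24.4 to 38.1 FPKM. No marker of these lists was at 0 in every library.

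Most translation factor mRNAs were lower in the Nynrin-KO libraries. Of the 64 members, 56 reached 1 FPKM in at least 4 libraries and were tested with limma on log2(FPKM + 1). At an adjusted p under 0.05, 31 fell and 2 rose, Eif4enif1 and Eif4g3, while 23 did not pass the test. Over all 12524 genes tested, 13.8% fell and 14% rose, so the members' share of falls lies above the background and their share of rises below it. All 4 Nynrin-KO libraries lay below all 4 WT libraries for 34 tested members and above them for 2, beside 15% and 16.7% of all genes tested. The median log2 difference, Nynrin-KO minus WT, was -0.88 over the 56 members (quartiles -1.19 and -0.41) and -0.03 over all genes tested (quartiles -0.55 and 0.44). Because bulk RNA was measured, fewer cells of a type and less RNA per cell cannot be told apart.

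Summed over the members, expression came to 12071 ± 3508 FPKM for WT and 3586 ± 733 FPKM for Nynrin-KO libraries (SD, n = 4 each). Their share of the recovered reads was 2.36% ± 0.69 in WT and 0.76% ± 0.15 in Nynrin-KO. Eef1a1 alone made up 51.2% to 57.7% of the members' summed FPKM in WT and 39.1% to 44.4% in Nynrin-KO libraries, and Eef1a1 with Eif5a made up 74.3% to 75.6% and 55.7% to 60.6%. The abundant members had the larger decreases: across the 56 members, Spearman's rho of the mean WT level with the log2 difference was -0.64, beside -0.39 over all genes tested. These points share the same 8 libraries and the WT mean enters both measures, so the value is a description.

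**Figure D1:**
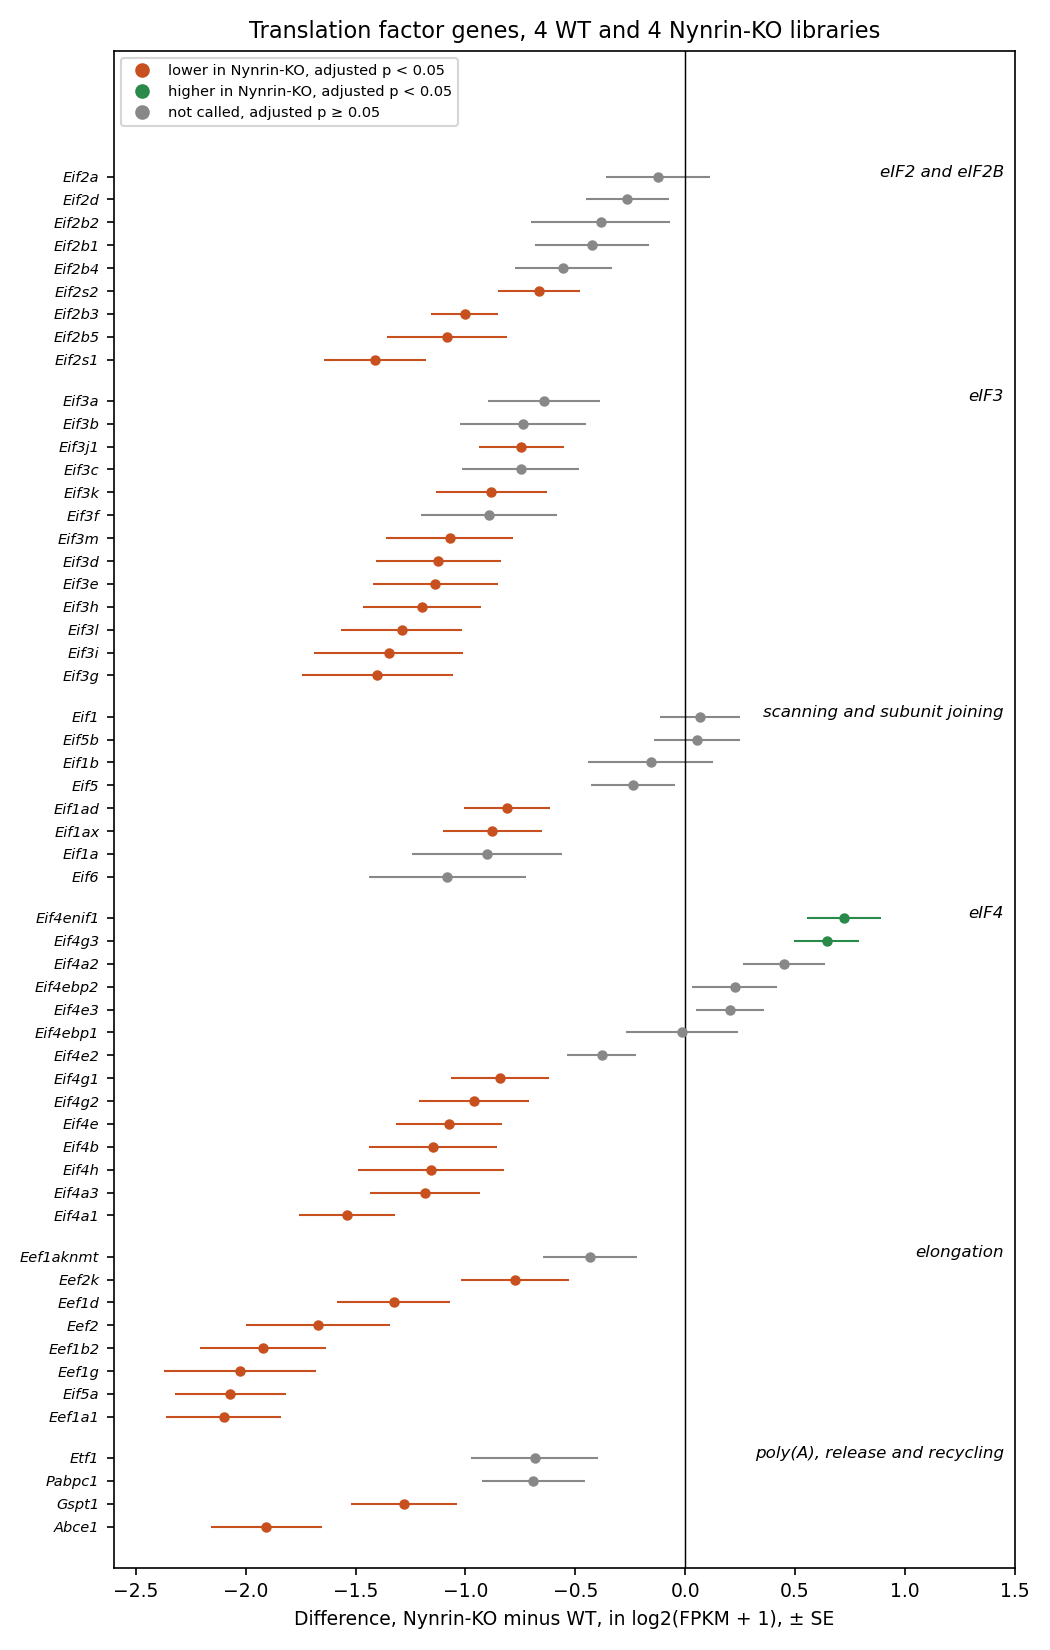
Difference in log2(FPKM + 1), Nynrin-KO minus WT, with its standard error for the 56 tested members, grouped by role; orange points fell, green points rose and grey points did not pass limma's test at an adjusted p of 0.05. The elongation group has the lowest median, though its points run from -2.10 to -0.43 and overlap those of other groups. The 2 green points are both eIF4 genes.

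With the mean log2 level of the 17 neutrophil markers as a covariate, limma called 0 of the 12524 genes (0%) at an adjusted p under 0.05, and 10 of 56 members had an unadjusted p under 0.05, beside 16.9% of all genes. That level does not overlap between the groups (4.21 to 7.94 in WT and 8.81 to 9.90 in Nynrin-KO libraries), so it and the genotype cannot be told apart. Without KO1, which held both Xist and Ddx3y, 22 members were lower, beside 11.1% of the genes tested, and 2 were higher. The 5 libraries high in Gm10800 are WT2, WT3 and WT4 against only KO1 and KO3, and KO3 is the shallowest library. Among these 5 libraries 18 members were lower, beside 6.42% of the genes tested there. With WT1 and KO1 left out 13 were, beside 7.15%. Abce1, Eef1a1, Eef1b2, Eef1d, Eef1g, Eef2, Eif2s1, Eif3l, Eif4a1 and Eif5a were lower at 0.05 in each of the 24 settings other than the neutrophil covariate, the reported one included. The other lower members lost the call in at least 1 of these settings.

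The libraries of a group also differed among themselves. The mean log2 level of the 56 members was 5.60, 5.12, 4.85 and 5.01 in WT1 to WT4, and 4.21, 4.44, 4.04 and 4.59 in KO1 to KO4. WT1, the deepest library, was the highest of the WT libraries for 50 of 56 members, and KO4, the deepest of the Nynrin-KO libraries, the highest of its group for 40. The shallowest libraries, WT3 and KO3, were the lowest of their groups for 35 and 41 members. WT3 and KO3 also held the most Gm10800 of their groups, at 142258 and 126894 FPKM. It was at 6076 FPKM in WT1 and 3990 FPKM in KO4, and a transcript at such levels takes up part of the total to which FPKM is scaled. WT1 is also the library with the lowest neutrophil level. The parts of depth, of Gm10800 and of cell content in these differences were not tested.

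**Figure D2:**
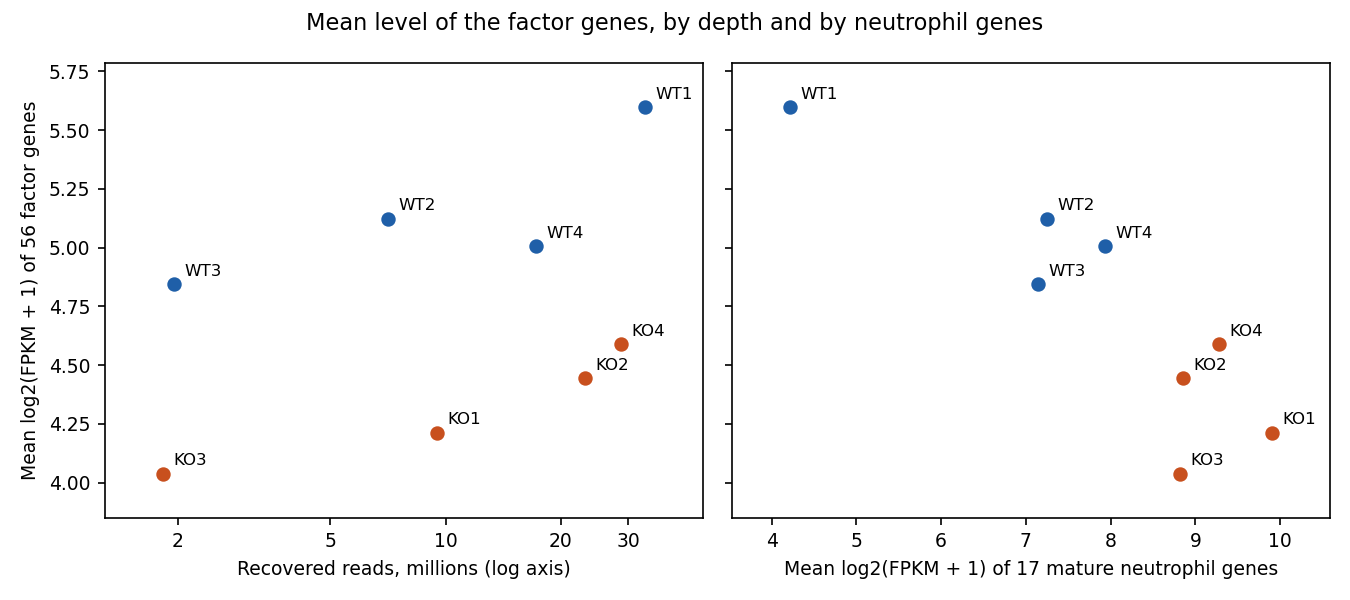
Mean log2(FPKM + 1) of the 56 tested members in each library (y axis) against recovered reads in M (left, log axis) and against the mean log2(FPKM + 1) of the 17 neutrophil markers (right); blue points are WT and orange points Nynrin-KO libraries. All WT libraries lie above all Nynrin-KO libraries, and WT1 lies at the top of both panels with the lowest neutrophil level.

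The elongation group had the lowest median log2 difference of the role groups, -1.80. Besides the factors it holds Eef2k and Eef1aknmt, the genes of enzymes that modify eEF2 and eEF1A. Of its 8 tested members 7 fell, Eef2k among them, beside 13.8% of all genes tested. Gene positions are from GENCODE M21 (GRCm38). Eif5a (chr11:69916714-69921958, - strand), the hypusine-bearing factor that helps ribosomes through runs of proline, was at 3368, 2096, 2163 and 2074 FPKM in WT1 to WT4 and 592, 529.7, 419.8 and 769 FPKM in KO1 to KO4. Every Nynrin-KO library lay far below every WT library, and WT1 stood above the other WT libraries. The means were 2425 ± 629.8 FPKM over WT and 578 ± 146 FPKM over Nynrin-KO libraries (SD, n = 4 each), with a log2 difference of -2.07 (SE 0.25, limma's adjusted p = 0.00157). Eef1a1 (chr9:78478449-78489151, - strand), the main gene for eEF1A, which carries amino-acyl tRNAs to the ribosome, was the most abundant member, at 9350.1, 6756, 4779 and 5479 FPKM in WT1 to WT4 and 1264, 1529, 1268 and 1992 FPKM in KO1 to KO4. Its highest Nynrin-KO library, KO4, was below its lowest WT library, WT3. The means were 6591 ± 2013 FPKM over WT and 1513 ± 342 FPKM over Nynrin-KO libraries (SD, n = 4 each) and the log2 difference was -2.10 (SE 0.26, limma's adjusted p = 0.00163). The other eEF1A gene, Eef1a2, known from muscle and nerve, was at most 0.253 FPKM in any library and was not tested.

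Eef1b2, Eef1d and Eef1g encode the subunits of eEF1B, which reloads eEF1A with GTP. All 3 fell, beside 13.8% of all genes tested. Eef1b2 was at 289.9, 176, 130.3 and 125 FPKM in WT1 to WT4 and 41.1, 47.2, 36.4 and 53.5 FPKM in KO1 to KO4, a log2 difference of -1.92 (SE 0.29, limma's adjusted p = 0.00263). Eef1g was at 463, 264, 147 and 193 FPKM in WT1 to WT4 and 53.9, 62.9, 46.4 and 75.8 FPKM in KO1 to KO4, with a difference of -2.03 (SE 0.35, limma's adjusted p = 0.00417). Eef1d was at 62.3, 36.8, 26.4 and 35.3 FPKM in WT1 to WT4 and 13.7, 16.1, 12.5 and 16.7 FPKM in KO1 to KO4, with a difference of -1.33 (SE 0.26, limma's adjusted p = 0.00664). All Nynrin-KO libraries lay below all WT libraries for each of the 3, beside 15% of all genes tested, and WT1 was the highest library of each. In FPKM their order was Eef1g, Eef1b2, Eef1d in all 8 libraries, and the highest over the lowest was 5.46 to 7.44 in WT and 3.72 to 4.53 in Nynrin-KO libraries.

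Eef2, the translocase of elongation, was at 457, 220.1, 218 and 223 FPKM in WT1 to WT4 and 77.1, 104, 52.3 and 109 FPKM in KO1 to KO4, a log2 difference of -1.67 (SE 0.33, limma's adjusted p = 0.0067). WT1 was about double the other WT libraries, and KO3 the lowest of all. Eef2 kept 30.7% of its WT mean, compared with 23.0% for Eef1a1. The ratio of Eef1a1 to Eef2 in FPKM was 20.5 to 30.7 in WT and 14.7 to 24.3 in Nynrin-KO libraries, ranges that overlap. Eef2k, the kinase that inactivates eEF2, fell from 5.61 ± 1.80 to 2.86 ± 0.98 FPKM, a log2 difference of -0.77 (SE 0.25, limma's adjusted p = 0.0445), although KO4 (4.13 FPKM) lay above WT3 (4.03 FPKM). Eef1aknmt did not pass the test, with a difference of -0.43 (SE 0.21, limma's adjusted p = 0.162).

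**Figure D3:**
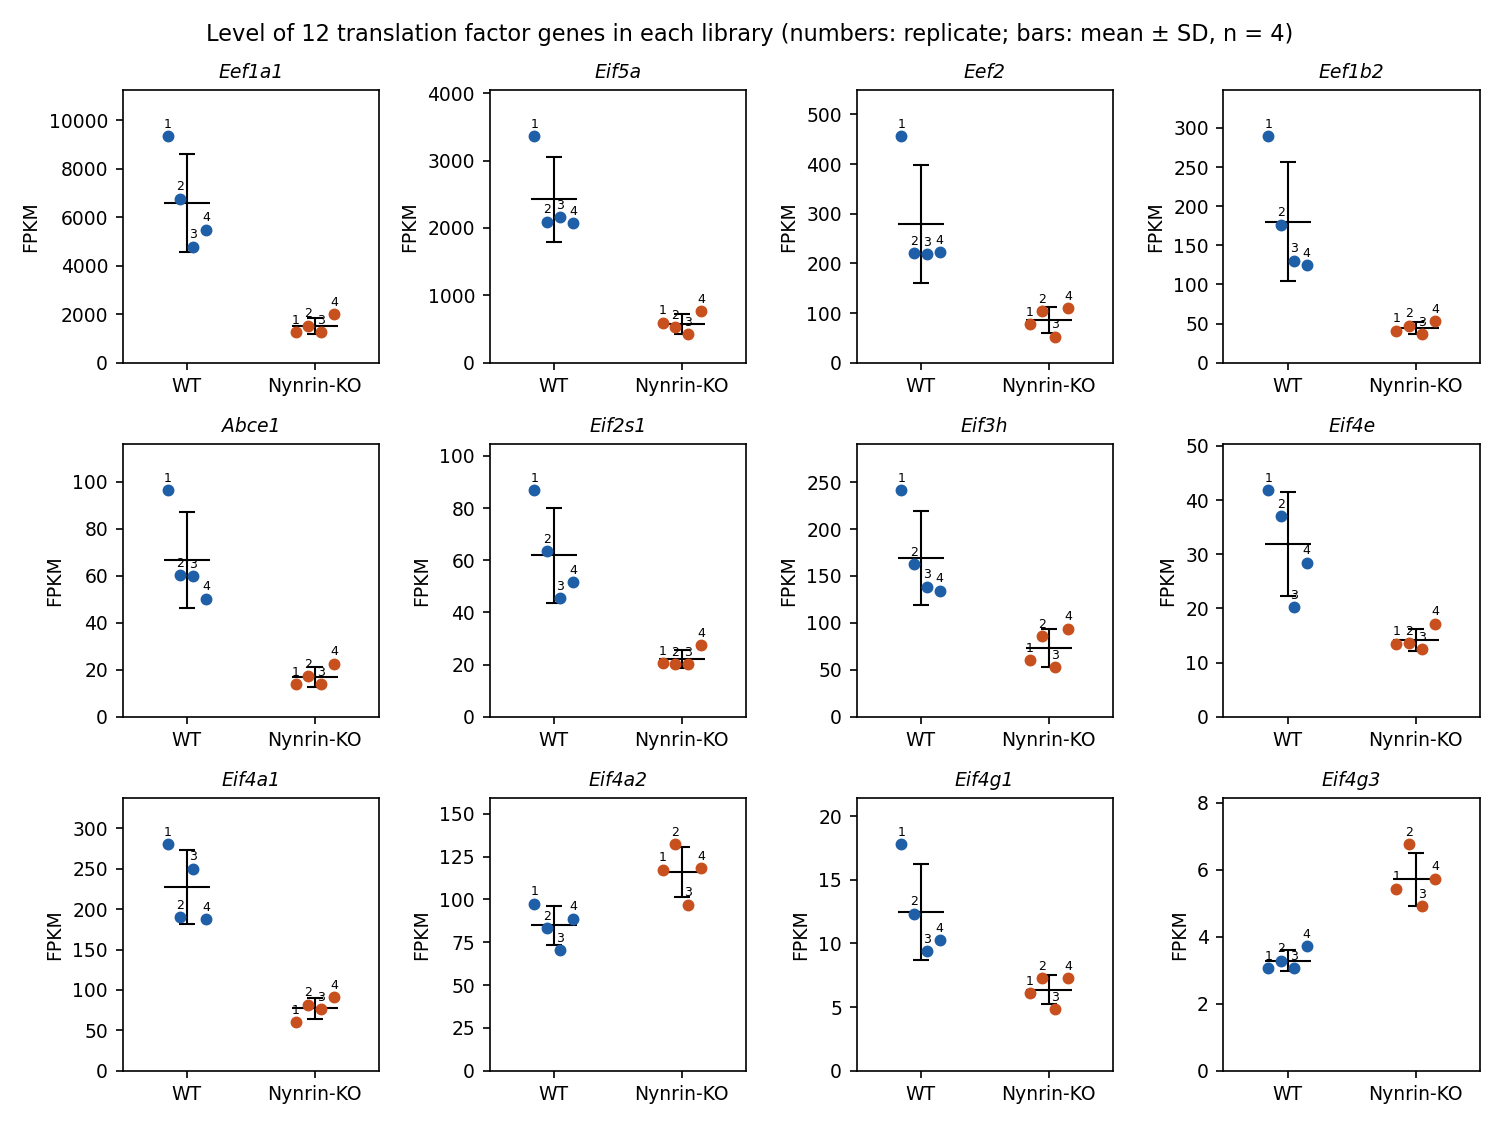
FPKM of 12 members in each library, with replicate numbers beside the points and bars for the mean ± SD (n = 4). The panels show Nynrin-KO libraries lower than WT for all of these genes except Eif4a2 and Eif4g3, where they lie higher except for KO3 of Eif4a2, and WT1 is the highest WT library in most panels.

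Of the 4 tested genes for poly(A) binding, release and recycling 2 fell, Abce1 and Gspt1, beside 13.8% of all genes tested. Abce1 (chr8:79683462-79711740, - strand), the ATPase that splits ribosomes for recycling and whose promoter is shown above, was at 96.6, 60.3, 59.9 and 50.2 FPKM in WT1 to WT4 and 13.8, 17.4, 13.7 and 22.6 FPKM in KO1 to KO4. The Nynrin-KO mean was 25.3% of the WT mean, and the log2 difference was -1.91 (SE 0.25, limma's adjusted p = 0.00194). Gspt1, the GTPase release factor eRF3a, was at 14.2, 9.24, 9.19 and 6.78 FPKM in WT1 to WT4 and 4.17, 3.96, 2.21 and 3.32 FPKM in KO1 to KO4, a difference of -1.28 (SE 0.24, limma's adjusted p = 0.0058). For both the groups were fully separate. Etf1, the release factor that recognises stop codons, did not pass the test, with a difference of -0.69 (SE 0.29, limma's adjusted p = 0.109).

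Pabpc1, the cytoplasmic poly(A)-binding protein, was the most abundant of this group at 174, 137, 93.8 and 114 FPKM in WT1 to WT4 and 81.9, 86.4, 61.2 and 85.1 FPKM in KO1 to KO4. All Nynrin-KO libraries lay below all WT libraries, yet the difference of -0.69 (SE 0.23, limma's adjusted p = 0.0544) missed the threshold. It passed under 7 of the alternative settings, for example when WT3 was left out. Under quantile normalization the difference was smaller, -0.24 (limma's adjusted p = 0.266).

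All 12 core eIF3 subunits and Eif3j1 had a negative difference. Of the 13 tested eIF3 genes 9 fell and 0 rose, beside 13.8% and 14% of all genes tested. The log2 differences of the 13 had a median of -1.07, beside -0.03 over all genes tested. eIF3 is the large scaffold that binds the small ribosomal subunit and keeps it apart from the large one. Eif3h (chr15:51786558-51865523, - strand), the most abundant subunit mRNA, was at 242, 162, 139 and 134 FPKM in WT1 to WT4 and 60.2, 85.8, 52.8 and 93.9 FPKM in KO1 to KO4, a log2 difference of -1.20 (SE 0.27, limma's adjusted p = 0.012). Its highest Nynrin-KO value, in KO4, stayed below its lowest WT value, in WT4, and under quantile normalization the difference was -0.75. Eif3l was at 139, 94.2, 58.5 and 76.7 FPKM in WT1 to WT4 and 33.1, 32.95, 30.8 and 45.8 FPKM in KO1 to KO4, with a difference of -1.29 (SE 0.28, limma's adjusted p = 0.00979). Eif3g, an RNA-binding subunit that takes part in scanning, was at 139, 55.4, 79.6 and 73.6 FPKM in WT1 to WT4 and 25.8, 37.2, 19.4 and 45.8 FPKM in KO1 to KO4, with a difference of -1.40 (SE 0.34, limma's adjusted p = 0.0164). For both genes WT1 was far above the other WT libraries and the groups did not overlap.

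Eif3d, Eif3e, Eif3i, Eif3j1, Eif3k and Eif3m also fell, by 0.75 to 1.35 on the log2 scale. Eif3a, the largest scaffold subunit, and Eif3f lay lower in every Nynrin-KO library than in any WT library but did not pass, with differences of -0.64 (SE 0.25, limma's adjusted p = 0.09) and -0.89 (SE 0.31, limma's adjusted p = 0.0589). Eif3b and Eif3c overlapped between the groups and did not pass either, at -0.74 (SE 0.29, limma's adjusted p = 0.0844) and -0.75 (SE 0.27, limma's adjusted p = 0.0644). The subunits work in 1 complex, but their FPKM values, which rest on the longest transcript of each gene, were not equal. Among the 12 core subunits Eif3h was the highest in all 8 libraries and Eif3b or Eif3d the lowest, and the highest over the lowest was 8.45 to 15.4. Eif3j2, which is 99.4% identical to Eif3j1 over 2379 aligned bases, was too low to test, and reads could be divided between these genes.

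Of the 9 tested eIF2 and eIF2B genes 4 fell and none rose, beside 13.8% and 14% of all genes tested. The median log2 difference was -0.56. Eif2s1 (chr12:78861819-78887010, + strand), the eIF2 subunit whose phosphorylation halts initiation under stress, was at 86.97, 63.4, 45.5 and 51.6 FPKM in WT1 to WT4 and 20.5, 20.2, 20.3 and 27.4 FPKM in KO1 to KO4. KO1, KO2 and KO3 were nearly equal and KO4 stood above them, still well below the lowest WT library. The log2 difference was -1.41 (SE 0.23, limma's adjusted p = 0.00355). Eif2s2, another subunit of the same complex, fell by 0.67 on the log2 scale, from 12.8 ± 3.19 to 7.54 ± 0.41 FPKM (limma's adjusted p = 0.0275).

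eIF2B recharges eIF2 with GTP, and 2 of its 5 subunit genes fell, beside 13.8% of all genes tested. Eif2b3 was at 6.47, 6.10, 5.43 and 5.64 FPKM in WT1 to WT4 and 2.11, 2.23, 3.06 and 2.43 FPKM in KO1 to KO4, a log2 difference of -1.004 (SE 0.15, limma's adjusted p = 0.00271). Its libraries varied little within each group, and it was the lowest of the 5 in every library. Eif2b5, the catalytic subunit, was at 24.03, 15.3, 14.4 and 17.4 FPKM in WT1 to WT4 and 7.10, 11.2, 4.50 and 9.54 FPKM in KO1 to KO4, with a difference of -1.08 (SE 0.27, limma's adjusted p = 0.0184), and the groups did not overlap. Eif2b1, Eif2b2 and Eif2b4 did not pass, at -0.42 (SE 0.26, limma's adjusted p = 0.249), -0.39 (SE 0.32, limma's adjusted p = 0.395) and -0.56 (SE 0.22, limma's adjusted p = 0.0904). Eif2a and Eif2d, which take part in less common routes of tRNA delivery, overlapped between the groups, with differences of -0.12 (SE 0.24, limma's adjusted p = 0.73) and -0.26 (SE 0.19, limma's adjusted p = 0.327).

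Of 8 tested scanning and subunit-joining factors 2 fell and 0 rose, beside 13.8% and 14% of all genes tested. These 8 genes are too few to set the group apart from those shares. Their median log2 difference was -0.52. Eif1, which guards start codon choice and is the most abundant of them, was at 171, 167, 155 and 166 FPKM in WT1 to WT4 and 182, 185, 135 and 197 FPKM in KO1 to KO4. The groups overlapped, the means differed by less than the spread of the Nynrin-KO libraries, and the difference was 0.07 (SE 0.18, limma's adjusted p = 0.811). KO3 was the lowest library and KO4 the highest. Under quantile normalization the difference was 0.60 and passed as higher (limma's adjusted p = 0.0129). Eif5, the GTPase activator of eIF2, and Eif5b, the subunit-joining GTPase, also overlapped, with differences of -0.24 (SE 0.19, limma's adjusted p = 0.387) and 0.05 (SE 0.20, limma's adjusted p = 0.868). For Eif1b the difference was -0.16 (SE 0.28, limma's adjusted p = 0.713).

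Eif1ax, an X-linked gene for the scanning factor eIF1A, was at 20.6, 15.5, 9.75 and 13.6 FPKM in WT1 to WT4 and 8.22, 6.46, 6.46 and 8.56 FPKM in KO1 to KO4, a log2 difference of -0.88 (SE 0.23, limma's adjusted p = 0.0202). Its groups did not overlap, but the call was lost without WT2 or without KO2, and the Xist and Ddx3y levels given above differ between the groups as well. Eif1a, the autosomal gene, was at 30.6 ± 11.1 FPKM over WT and 15.96 ± 5.99 FPKM over Nynrin-KO libraries and did not pass, at -0.90 (SE 0.34, limma's adjusted p = 0.0775). Eif1ad, named for an eIF1A-like domain, was at 28.98, 22.7, 18.5 and 17.4 FPKM in WT1 to WT4 and 11.02, 10.5, 12.2 and 13.7 FPKM in KO1 to KO4, with a difference of -0.81 (SE 0.20, limma's adjusted p = 0.0159). It shares 428 identical transcript bases with Banf1, a gene on the opposite strand, which fell by 1.61 on the log2 scale (limma's adjusted p = 0.00197). The use of strand in counting is not stated in any source used here, so the values of Eif1ad are uncertain. Eif6, which keeps large subunits from joining early, was at 94.2, 33.1, 66.9 and 48.6 FPKM in WT1 to WT4 and 23.1, 33.9, 16.4 and 36.1 FPKM in KO1 to KO4. KO2 and KO4 exceeded WT2, the groups overlapped, and the difference of -1.08 (SE 0.36, limma's adjusted p = 0.0507) lay just outside the threshold.

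The eIF4 group holds the factors that recognise the cap and unwind the mRNA, together with other genes that share the name. Of 14 tested members 7 fell and 2 rose, beside 13.8% and 14% of all genes tested, so the share of rises is near the background. The median log2 difference was -0.61. Eif4a1 (chr11:69666936-69672423, - strand), the main RNA helicase of the cap complex, was at 281, 190.3, 250.03 and 187 FPKM in WT1 to WT4 and 59.7, 81.8, 75.9 and 91.2 FPKM in KO1 to KO4, a log2 difference of -1.54 (SE 0.22, limma's adjusted p = 0.00224). Its lowest WT library was above double its highest Nynrin-KO library. Eif4a3, the related helicase of the exon junction complex, was at 157, 106, 81.4 and 93.1 FPKM in WT1 to WT4 and 41.9, 47.96, 37.4 and 59.7 FPKM in KO1 to KO4, with a difference of -1.19 (SE 0.25, limma's adjusted p = 0.00917) that was -0.79 under quantile normalization. Eif4b and Eif4h, which stimulate the helicase, fell by 1.15 and 1.16 on the log2 scale (limma's adjusted p = 0.019 and 0.0299).

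Eif4e, the cap-binding protein itself, was at 41.9, 37.03, 20.2 and 28.4 FPKM in WT1 to WT4 and 13.5, 13.5, 12.5 and 17.2 FPKM in KO1 to KO4, a log2 difference of -1.08 (SE 0.24, limma's adjusted p = 0.0115). The groups were separate, with WT3 the closest to KO4. Eif4g1, the scaffold that joins cap and ribosome, fell from 12.4 ± 3.79 to 6.37 ± 1.15 FPKM, a difference of -0.84 (SE 0.22, limma's adjusted p = 0.0218). Eif4g2, a scaffold that does not bind Eif4e, fell by 0.96 on the log2 scale (limma's adjusted p = 0.0206).

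Both members that rose belong to this group and were low in WT. Eif4g3 (chr4:137993022-138208508, + strand), a paralogue of Eif4g1, was at 3.06, 3.28, 3.07 and 3.72 FPKM in WT1 to WT4 and 5.43, 6.77, 4.91 and 5.74 FPKM in KO1 to KO4, a log2 difference of 0.64 (SE 0.15, limma's adjusted p = 0.0133). Eif4enif1 (chr11:3202392-3244588, + strand), which carries eIF4E into the nucleus and into P-bodies, was at 5.02, 3.73, 4.12 and 5.16 FPKM in WT1 to WT4 and 6.82, 7.41, 10.03 and 8.17 FPKM in KO1 to KO4, with a difference of 0.72 (SE 0.17, limma's adjusted p = 0.014). All Nynrin-KO libraries were above all WT libraries for both genes. Both calls were lost under median-of-ratios scaling, with no filter on low values and in the 5 libraries high in Gm10800, and each gene overlaps a gene on the opposite strand, Drg1 for Eif4enif1 and 1700095J12Rik for Eif4g3.

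The tested Eif4ebp genes, which encode inhibitors of eIF4E, did not pass the test. Eif4ebp1, the main 4E-binding protein, was at 22.5 ± 4.51 FPKM over WT and 22.7 ± 6.96 FPKM over Nynrin-KO libraries (SD, n = 4 each), a difference of -0.01 (SE 0.26, limma's adjusted p = 0.975). Eif4ebp2 differed by 0.23 (SE 0.19, limma's adjusted p = 0.418). Eif4e2, a cap-binding repressor, lay lower in every Nynrin-KO library without passing, at -0.38 (SE 0.16, limma's adjusted p = 0.103), and Eif4e3 differed by 0.20 (SE 0.15, limma's adjusted p = 0.358). Eif4a2 (chr16:23107444-23114136, + strand), the other eIF4A helicase, was at 97.5, 83.3, 70.4 and 88.8 FPKM in WT1 to WT4 and 117, 132, 97.02 and 118 FPKM in KO1 to KO4. KO3 lay just below WT1, the other Nynrin-KO libraries lay above all WT libraries, and the difference of 0.45 (SE 0.19, limma's adjusted p = 0.104) was past the threshold only under quantile normalization among the scalings tried.

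Within each library 7 pairs of related genes were compared as the difference of their log2(FPKM + 1) values, from which a library's scaling drops out except through the pseudocount. Eif4a1 over Eif4a2 was 1.52, 1.18, 1.81 and 1.07 in WT1 to WT4 and -0.96, -0.69, -0.35 and -0.37 in KO1 to KO4. In every WT library Eif4a1 was the higher of this pair and in every Nynrin-KO library Eif4a2 was, in FPKM. Their mean FPKM stood in a ratio of 2.67 in WT and 0.664 in Nynrin-KO. Eif4g1 over Eif4g3 was 2.21, 1.64, 1.35 and 1.25 in WT and 0.14, 0.09, -0.01 and 0.30 in Nynrin-KO libraries. Eif4e over Eif4e2 was 1.42, 1.35, 0.46 and 1.07 in WT and 0.45, 0.23, 0.41 and 0.43 in Nynrin-KO libraries, where WT3 almost met KO1.

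These 3 pairs did not overlap between the groups, with differences of -1.99, -1.49 and -0.70. For Eif4g1 over Eif4g3, a low pair, the difference was -1.70 with a pseudocount of 0.1 and -0.97 with 5. Each had an exact two-sided permutation p of 0.0286, the smallest that 4 against 4 libraries can give, and 0.0667 after Benjamini-Hochberg adjustment over the 7 pairs, so none passed 0.05. Eif4e over Eif4ebp1, a measure of cap-binding protein against its inhibitor at the RNA level, differed by -1.06 with overlapping groups (exact permutation p = 0.0571, adjusted 0.1). The remaining 3 pairs, Eif4ebp1 over Eif4ebp2, Eif1 over Eif1b and Eif1a over Eif1ax, differed by -0.24, 0.23 and -0.02, with exact permutation p of 0.314, 0.4 and 0.943.

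**Figure D4:**
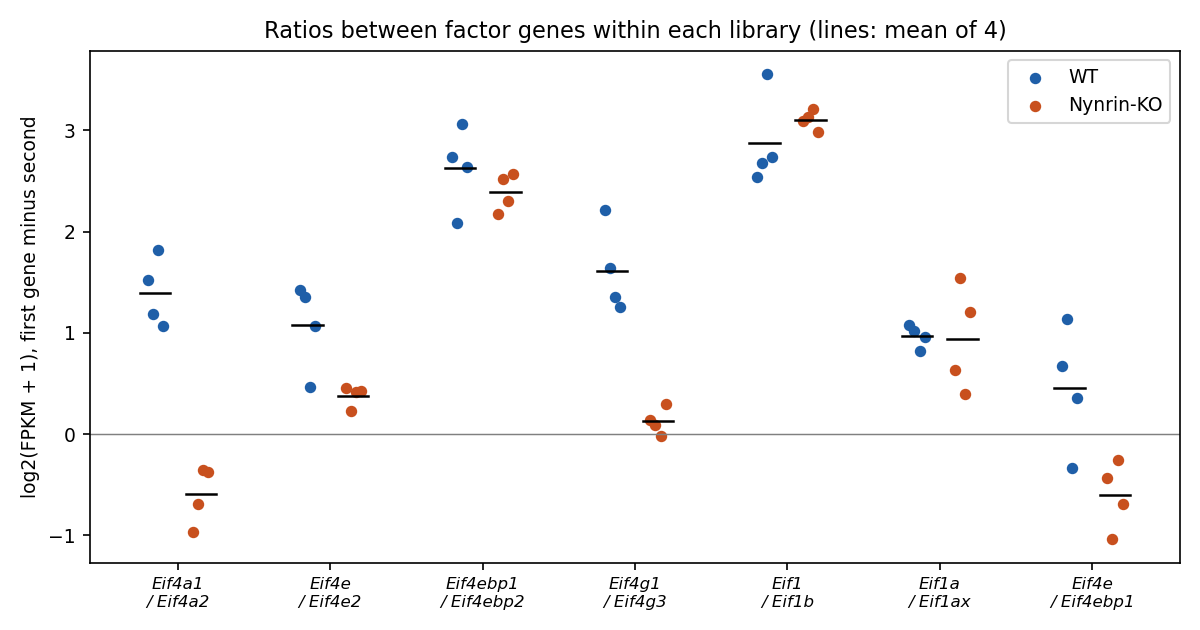
Difference of log2(FPKM + 1) between the first and second gene of 7 pairs in each library (y axis), blue for WT and orange for Nynrin-KO, with lines at the mean of 4 libraries. The groups are apart for Eif4a1 over Eif4a2, Eif4g1 over Eif4g3 and Eif4e over Eif4e2, and Eif4a1 over Eif4a2 lies above 0 in all WT and below 0 in all Nynrin-KO libraries.

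TOP mRNAs among the members, named from general knowledge, were Eef1a1, Eef1b2, Eef1d, Eef1g, Eef2, Eif3e, Eif3f, Eif3h, Eif4b and Pabpc1. Of these 10, 8 fell and 0 rose, beside 13.8% and 14% of all genes tested. Their log2 differences ran from -2.10 to -0.69 with a median of -1.26. Eef1a1, Eef1b2, Eef1d, Eef1g and Eef2 in this list also belong to the elongation group described above. The other 46 tested members had a median of -0.76, with 23 falls and 2 rises. Their median WT level was 20.7 FPKM, against 149.6 FPKM for the TOP genes, so the lists differ in level as well as in this feature. The list was chosen with the values known.

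Genes that act on the factors were read from a list of 62 kinases, modifying enzymes, partners and mitochondrial factors, all in the table and 60 tested. Of these, 14 fell (23.3%, beside 13.8% of all genes tested) and 5 rose (8.33%, beside 14%), with a median log2 difference of -0.23. Together 31.7% changed, near the 27.9% of all genes tested, and the genes below are given singly. The smallest p-values among the falls belonged to Btf3, Naca, Rps6 and Rack1. Btf3 and Naca, the subunits of the complex that meets nascent chains, were at 295 ± 87.3 FPKM over WT and 84.6 ± 13.7 FPKM over Nynrin-KO libraries (SD, n = 4 each) and at 67.2 ± 16.8 FPKM over WT and 19.5 ± 4.36 FPKM over Nynrin-KO libraries (SD, n = 4 each), with differences of -1.76 (SE 0.24, limma's adjusted p = 0.00197) and -1.73 (SE 0.24, limma's adjusted p = 0.002). Rps6, a ribosomal protein and kinase target, was at 1553, 1102, 644 and 821 FPKM in WT1 to WT4 and 229, 232, 203 and 313 FPKM in KO1 to KO4, a difference of -2.01 (SE 0.29, limma's adjusted p = 0.00238). Rack1, a scaffold on the small subunit, differed by -1.89 (SE 0.31, limma's adjusted p = 0.00355).

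The smallest p-values among the rises belonged to Mknk1, Eif2ak3, Eif2ak2 and Ppp1r15b. Eif2ak2 (PKR), a kinase that phosphorylates Eif2s1, was at 1.63, 2.88, 4.61 and 5.12 FPKM in WT1 to WT4 and 8.53, 20.4, 19.04 and 8.33 FPKM in KO1 to KO4, a log2 difference of 1.69 (SE 0.37, limma's adjusted p = 0.0109). Eif2ak3 (PERK), which acts on the same subunit during stress of the endoplasmic reticulum, was at 1.67, 1.88, 2.03 and 1.80 FPKM in WT1 to WT4 and 3.27, 4.32, 3.76 and 3.61 FPKM in KO1 to KO4, with a difference of 0.73 (SE 0.15, limma's adjusted p = 0.00856). Ppp1r15b, which directs the phosphatase that reverses this mark, differed by 0.88 (SE 0.23, limma's adjusted p = 0.0202), and Mknk1, a kinase of eIF4E, by 0.95 (SE 0.18, limma's adjusted p = 0.00634). The other kinases of Eif2s1 did not pass, with differences of -0.22 (SE 0.19, limma's adjusted p = 0.411) for Eif2ak1 and 0.13 (SE 0.19, limma's adjusted p = 0.639) for Eif2ak4, nor did the phosphatase partner Ppp1r15a, at -0.45 (SE 0.43, limma's adjusted p = 0.466). The groups did not overlap for any of the 4 genes that rose and are named here. The phosphorylation of the proteins was not measured.

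Several members have near-identical copies. A BLAST search of the members' longest transcripts found 35 pseudogene rows with at least 95% identity over at least 300 bases. Of these, 23 were tested, and 9 fell and 0 rose, beside 13.8% and 14% of all genes tested. Reads could be shared between copies and members, so these counts are not independent of the members' own. For Eif4a1 the copies summed to 30.4% of its own WT level, nearly all from Eif4a-ps4, which is identical over 452 bases and was at a mean of 67.8 FPKM over WT and 19.99 FPKM over Nynrin-KO libraries. For Eef1a1 they summed to 1.70% and for Eif5a to 0.202%. No source used here states how reads that match several genes were counted, so the level of Eif4a1 in particular is uncertain. Besides these, 18 members overlap another gene on the opposite strand, among them Eef1b2, Gspt1, Abce1, Eif6 and Eif4a2, whose neighbour Rfc4 fell by 1.146 on the log2 scale (limma's adjusted p = 0.0194). A further shared feature is that 8 members hold 17 annotated snoRNA genes on their own strand, among them Eef1b2, Eef2, Eif4a1, Eif4a2 and Eif4g1.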

How the data were processed

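RNA was measured by Smart-Seq V4 RNA-seq in 4 WT and 4 Nynrin-KO libraries. The authors deposited 1 table of FPKM values for 48500 genes, and its header does not name the unit. The values were read as FPKM because they could be turned back into whole reads. Each was multiplied by the transcript length described in the Results and divided by a single step per library. In this way 99.4% to 99.5% of the checked values became whole reads (tolerance 0.1 read). Values worth 2 reads outnumber those worth 1, so reads are not independent fragments. The submitters' processing notes name Bowtie 0.12.9, Cufflinks 2.1.1, HTSeq and mm10 with no role. The counting rule, strand and the handling of reads with several matches are stated in no source used here. Coordinates are from GENCODE M21 (GRCm38), which held 99.5% of the identifiers.

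Because the unit is FPKM, no count test was the main result. The test was limma 3.58.1 under R 4.3.3 (trend, robust, two-sided), for genes with at least 1 FPKM in 4 of 8 libraries, on log2(FPKM + 1), with Benjamini-Hochberg adjustment over all genes at 0.05. This filter can be passed through 1 group alone, which no tested member did: each had at least 3 libraries of each group at 1 FPKM. Fold changes on this scale are understated for low genes. 3 reads of a 1 kb transcript are worth 0.0907 FPKM in WT1 and 1.64 FPKM in KO3, counting error only. Gene pairs were compared by exact permutation over 70 arrangements. Copies were found with BLAST 2.17.0. Python 3.11.15, pandas 2.3.3 and scipy 1.17.1 were used.

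Values in every library are printed for the 3 members with the smallest p and the most abundant member of each role, the 10 with the smallest p of all and those that rose. Eef2 and Eif4a2 are printed in every library outside this rule, chosen after their values were seen, and any other member may be named with a summary. From the list of related genes, up to 4 per direction are named, beside Eif2ak1, Eif2ak4 and Ppp1r15a, which were added later. The members, lists and alternatives were chosen with earlier results of these data known. Same-numbered libraries did not deviate together (r = -0.2128, -0.3889, 0.3293 and 0.0076), so the numbers were not used as pairs.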

Additional observations from a re-analysis of the deposited data

Results flagged for a closer look

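In 46 groups of 4 libraries (23 members, 2 genotypes), 3 held a library that lay apart from the other 3 by more than Dixon's 95% limit. Chance alone does so in about 1 group in 20. Eif5a was at 3368 FPKM in WT1 and at 2074 to 2163 FPKM in the other WT libraries. Eif2s1 was at 27.4 FPKM in KO4 and at 20.2 to 20.5 FPKM in the other Nynrin-KO libraries. Eif3l was at 45.8 FPKM in KO4 and at 30.8 to 33.1 FPKM in the others. WT1 and KO4 are the deepest libraries of their groups, and both are low in Gm10800.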

How the results depend on the processing

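Against 3488 genes changed, 31 members lower, 2 higher and 19 related genes changed, an adjusted p under 0.01 left 1454, 13, 0 and 8. No filter on low values left 1698, 15, 0 and 9, median-of-ratios scaling 2132, 12, 0 and 11, and omission of WT1 and KO1 together 1579, 13, 1 and 9. The 5 libraries high in Gm10800 gave 925, 18, 0 and 5, and the neutrophil covariate 0, 0, 0 and 0. Higher members numbered 1 with a filter at 5 FPKM and 4 with quantile normalization. The cause of these changes was not tested, beyond the fewer libraries or the stricter threshold where that is the setting. With the replicate number as a block the counts were 2838, 28, 2 and 17, although the numbers do not pair the libraries. For the gene pairs the block test could call nothing, because sign changes over 4 differences cannot give a p under 0.05. Leaving out 1 library at a time gave 2358 to 3606 genes, 22 to 36 members lower, 2 higher in each case and 14 to 24 related genes. In these fits 10.2% to 15.8% of all genes tested were lower and 8.43% to 16.2% higher. Voom on recovered reads called 4918 genes, with 40 members lower and 2 higher. Of all genes tested, 19% were then lower and 20.4% higher. Those shares were 6.25% and 5.36% at an adjusted p under 0.01, and 1.87% and 1.63% with no filter. With median-of-ratios scaling they were 8.71% and 8.31%, without WT1 and KO1 7.15% and 6.72%, and with the block 11.8% and 10.8%. They were 6.42% and 1.9% in the 5 libraries high in Gm10800. Quantile normalization gave 14.7% and 15.3%, and the filter at 5 FPKM 24.9% and 18.5%. In the 5 libraries high in Gm10800, 77.2% of all calls were falls, beside 49.7% in all 8. The median of all genes moved by over 0.1 only with the filter at 5 FPKM, to -0.13. Of 597 values for single named members under the alternatives, 522 kept direction and side of the threshold, 59 lost the call, 14 gained it and 2 changed sign. The sign changes were those of Eif1, to -0.055 in the 5 libraries and -0.0182 with Gm10800 as covariate. Eif1a over Eif1ax changed sign to 0.0087 with a pseudocount of 0.1, to 0.117 without WT1 and KO1, and ranged from -0.225 to 0.159 when 1 library at a time was left out (above 0 without WT1, KO1 or KO3). Depth limits the low members: Eif5b rests on 30 recovered reads in WT3 and in KO3, and on 805 in WT1.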

Other observations

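The rule sets aside the genes of the third eIF2 subunit, which lie on the X and Y chromosomes. Eif2s3x was at 24.8, 17.01, 6.01 and 14.8 FPKM in WT1 to WT4 and at 5.35, 4.53, 4.80 and 5.46 FPKM in KO1 to KO4. Its Y-linked copy Eif2s3y was at most 0.112 FPKM in the WT libraries, at 2.51 FPKM in KO1 and between 20.6 and 25.9 FPKM in the other 3 Nynrin-KO libraries. The order of Eif2s3y over the Nynrin-KO libraries follows that of Ddx3y in placing KO1 lowest.

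The 8 members below the filter were Eif3j2, Eif4a3l1, Eif4a3l2, Eif4e1b, Eif4ebp3, Eef1a2, Eif5a2 and Eif2c5. Eif5a2, the paralogue of Eif5a, averaged 0.969 FPKM over WT and 0.729 FPKM over Nynrin-KO libraries, so Eif5a made up nearly all of the eIF5A mRNA in both groups. Eif4e1b, known from oocytes, was listed at 0 in all Nynrin-KO libraries and in WT1 and WT2.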
